A study of Mus musculus with 2 samples.

Results

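Tissue inhibitors of metalloproteinases (TIMPs) and their target proteases were followed by 6 genes, *Timp1*, *Timp2*, *Timp3*, *Mmp2*, *Mmp14* and *Mmp15*, in single cells of mouse eyecups at e13.5. The genes were chosen by name, 6 of the 31053 genes listed in the counts, and all 6 had transcripts in both libraries. One library came from Myrf fl/fl eyecups, in which both *Myrf* alleles are flanked by loxP sites, and served as control. The other came from Rx>cre Myrf fl/fl eyecups, which carry the same floxed alleles together with Cre recombinase from an *Rx* transgene, active in the eye field lineage that gives rise to neural retina and retinal pigment epithelium (RPE). Each library pooled 3 samples of its genotype, with cornea, lens and optic nerve removed before dissociation. Periocular mesenchyme, vessels and blood cells, which lie outside that lineage, remained with the eyecups. With 1 library per genotype, animals, library and genotype cannot be told apart, and no test was made. A library from embryos with Rx>cre and no floxed allele was not analysed here.

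TIMPs are secreted proteins that bind the catalytic site of matrix metalloproteinases and stop them from cutting extracellular matrix. *Timp3* encodes the member that stays bound to the matrix and also inhibits several ADAM and ADAMTS proteases. In the eye it is laid down in Bruch's membrane beneath the RPE, and mutations in human *TIMP3* cause Sorsby fundus dystrophy. *Mmp2* encodes gelatinase A, a secreted protease of basement membrane collagen. *Mmp14* and *Mmp15* encode membrane-bound proteases, of which MMP14 activates pro-MMP2 in a complex with TIMP2.

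In the GRCm38 annotation, the 3 inhibitor genes lie in or around other genes. *Timp1* (ENSMUSG00000001131, chrX:20870166-20874735, + strand) lies within an intron of *Syn1*, the synapsin I gene on the opposite strand. *Timp3* (ENSMUSG00000020044, chr10:86300372-86349506, + strand) lies within *Syn3*, the synapsin III gene on the opposite strand, in an intron of 3 of its 6 annotated transcripts. *Timp2* (ENSMUSG00000017466, chr11:118301069-118355740, - strand) holds the small gene *Cep295nl* in an intron on its own strand. *Mmp2* (ENSMUSG00000031740, chr8:92827291-92853420), *Mmp14* (ENSMUSG00000000957, chr14:54431612-54445364) and *Mmp15* (ENSMUSG00000031790, chr8:95352268-95375080) are all on the + strand. The promoters of the 3 inhibitors are shown because their transcripts were found in different cell classes. Each run is 300 bases from RefSeq on GRCm38.p6, from 250 bases before to 50 bases after the gene's RefSeq start, 5′ to 3′ on the gene's strand. This start can differ from that of the gene spans above. Capitals mark the GC box GGGCGG or its reverse complement CCGCCC. The *Timp1* window is chrX:20869916-20870215, the *Timp2* window chr11:118355362-118355661 and the *Timp3* window chr10:86300162-86300461. The *Timp2* window thus lies wholly inside the *Timp2* span given above, downstream of the start of that span.
Timp1: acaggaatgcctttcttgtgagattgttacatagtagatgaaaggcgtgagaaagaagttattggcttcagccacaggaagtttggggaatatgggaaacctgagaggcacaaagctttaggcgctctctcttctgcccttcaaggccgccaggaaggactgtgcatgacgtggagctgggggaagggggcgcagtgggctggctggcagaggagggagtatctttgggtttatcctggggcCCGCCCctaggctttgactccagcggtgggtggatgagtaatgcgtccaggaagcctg
Timp2: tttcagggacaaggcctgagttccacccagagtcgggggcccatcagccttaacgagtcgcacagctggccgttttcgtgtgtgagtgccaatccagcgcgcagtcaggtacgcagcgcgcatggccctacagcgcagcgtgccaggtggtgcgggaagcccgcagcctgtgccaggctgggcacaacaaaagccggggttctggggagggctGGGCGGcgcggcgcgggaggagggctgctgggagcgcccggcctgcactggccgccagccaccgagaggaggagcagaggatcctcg
Timp3: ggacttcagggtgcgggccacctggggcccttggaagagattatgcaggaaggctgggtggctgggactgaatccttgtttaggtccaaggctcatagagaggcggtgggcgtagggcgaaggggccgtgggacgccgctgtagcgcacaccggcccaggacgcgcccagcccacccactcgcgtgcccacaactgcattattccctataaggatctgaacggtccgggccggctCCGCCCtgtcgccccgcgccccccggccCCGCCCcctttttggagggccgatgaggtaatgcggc

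The GC box occurred 1 time in the *Timp1* and *Timp2* windows and 2 times in the *Timp3* window. It was present in 35.7% of all 32851 promoter windows of the same length. The windows of *Timp2* and *Timp3* held 25 and 24 CpG dinucleotides against 8 in that of *Timp1* and a median of 7 over all windows. Searched on both strands, TATAAA (13.6% of windows), the AP-1 site TGAGTCA or TGACTCA (5.20%), CATGTG (14.2%) and TAATCC (7.06%) were not found in these 3 windows. The *Mmp14* and *Mmp15* windows held 2 and 1 GC boxes and none of the other motifs. These matches are descriptions of the letters only.

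The libraries held 6039 control and 6754 mutant barcodes with 63483835 and 75228861 unique molecular identifiers (UMIs, 1 per captured transcript), and 5468 and 6300 cells were kept. Clustering gave 29 clusters, of which 23 fell into 14 classes named from marker genes as "-like" cells. The remaining 6 clusters stayed unnamed and held 23.0% of control and 19.9% of mutant cells. The RPE-like class had 252 control and 153 mutant cells, and 8 of its 9 markers stood over 2-fold above all other cells in both libraries. *Myrf*, the deleted gene, had 155 control and 30 mutant UMIs in the RPE-like class, a log2 ratio of -1.86 (-2.51 to -1.33) in the direction of the labels. Levels are given in CPM, counts per 1000000 UMIs of the class, with an exact Poisson 95% interval. Ratios set mutant over control on the log2 scale, with 1 UMI added to each sum and an exact conditional interval. All intervals cover counting error only, not how embryos or library preparations vary.

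Before the results, 1 feature of the libraries bears on *Timp3*. The 2 libraries shared 72 cell barcodes, of which 67 were kept in both. Of these, 57 fell in cluster 22 in both libraries, and they made up nearly all of its 60 control and 63 mutant cells. The UMIs of these barcodes in control over mutant lay between 0.789 and 1.15, with a median of 1.06. For the 10 shared barcodes outside the cluster the same ratio ran from 0.0347 to 11.5. Cluster 22 was shallow, with a median of 1100 UMIs per cell, and was led by *Cxcl14*, *S100a6* and *S100a4*.

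*Timp3* stood at 965 CPM (771 to 1193, 85 UMIs) in control and 1077 CPM (869 to 1319, 93 UMIs) in mutant cells of cluster 22, above every named class. Within it, 14 barcodes had *Timp3* UMIs in both libraries, 9 in 1 library and 34 in neither. The same barcode held the most in both, 20 control and 21 mutant UMIs. Cluster 22 held 8.57% of all control and 8.82% of all mutant *Timp3* UMIs. Over all kept cells *Timp3* was at 16.1 CPM in control and 14.4 CPM in mutant, and without the shared barcodes at 14.7 and 13.1 CPM. How the same barcodes came to be in both libraries was not tested. Cluster 22 entered no named class. Some ratios are also given without the shared barcodes. Levels and shares of the named classes are given with them, and the totals behind shares of all UMIs hold cluster 22.

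**Figure D1:**
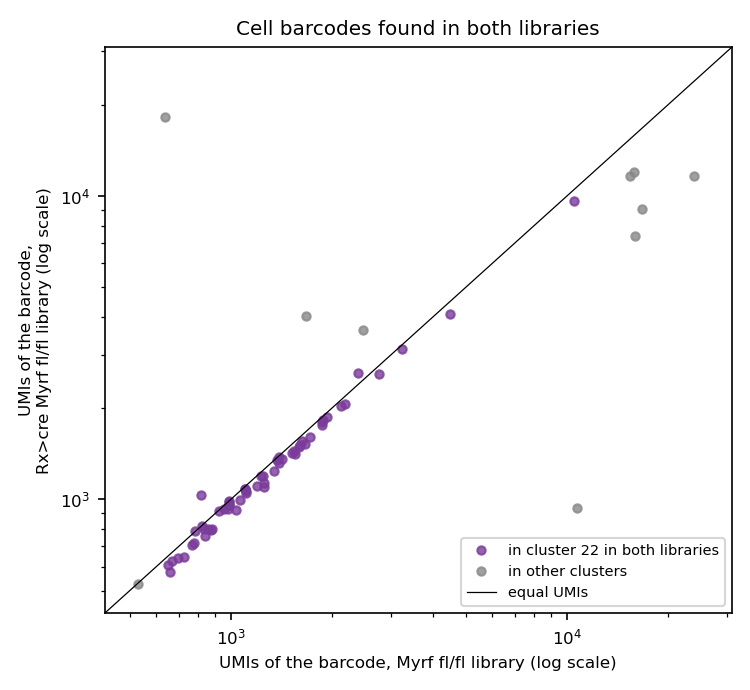
UMIs of each kept barcode found in both libraries, in the Myrf fl/fl library (x axis, log scale) and the Rx>cre Myrf fl/fl library (y axis, log scale), with purple points for the 57 barcodes in cluster 22 in both libraries, grey points for the other 10 and a line of equal UMIs. The purple points follow the line, and most of the grey points lie away from it.

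*Timp3* stood highest in 3 kinds of cells: Schwann or neural crest-like, endothelium-like and RPE-like cells. In Schwann or neural crest-like cells (22 control and 38 mutant cells), marked by *Foxd3* and *Sox10*, *Timp3* stood at 330 CPM (269 to 402, 100 UMIs) in control and 283 CPM (241 to 330, 160 UMIs) in mutant. In endothelium-like cells it stood at 96.5 CPM (82.7 to 112, 174 UMIs) and 104 CPM (90.0 to 120, 188 UMIs). In RPE-like cells it stood at 67.6 CPM (56.9 to 79.8, 140 UMIs) and 51.5 CPM (40.6 to 64.4, 77 UMIs). The intervals of these 3 classes did not overlap in the control library. In the mutant library the RPE-like interval overlapped that of the next class, the melanocyte-like cells, at 38.8 CPM (25.1 to 57.3) against 31.9 CPM (21.0 to 46.4) in control. Of the 25 mutant melanocyte-like UMIs, 10 came from 1 cell. Periocular mesenchyme-like cells followed at 16.6 CPM (14.8 to 18.6) and 14.2 CPM (12.7 to 15.9). The order of the first 5 classes was the same in both libraries.

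The neural retina was nearly without *Timp3*. Retinal progenitor-like cells had 31 UMIs in control and 25 in mutant, at 1.71 and 1.42 CPM, near the 1.18 and 1.75 CPM of red blood cell-like cells. Neurogenic precursor-like and retinal ganglion cell-like cells were at 2.65 and 2.48 CPM in control and 1.73 and 0.886 CPM in mutant. Photoreceptor precursor-like cells had 0 UMIs in either library, which at their depth allows up to 8.91 CPM in control and 9.24 CPM in mutant. Macrophage-like cells had 1 and 2 UMIs. In mutant red blood cell-like cells, 11 of the 18 *Timp3* UMIs came from 1 cell.

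Because cells differ in depth, shares of cells with a *Timp3* UMI were compared after thinning every cell to 3000 UMIs. The share was 66.7% (Clopper-Pearson interval 43.0 to 85.4) of 21 control and 59.5% (42.1 to 75.2) of 37 mutant Schwann or neural crest-like cells. In endothelium-like cells it was 23.7% (15.7 to 33.4) of 97 and 25.5% (17.4 to 35.1) of 102. In RPE-like cells it was 16.0% (10.2 to 23.5) of 131 and 15% (8.0 to 24.7) of 80, with 121 control and 73 mutant cells too shallow to be used. Unthinned, the RPE-like share with a *Timp3* UMI was 33.7% in control and 26.8% in mutant, at median depths of 3956 and 3853 UMIs. Red blood cell-like cells had a thinned share of 0.562% (0.0142 to 3.09) in control and 0.726% (0.150 to 2.11) in mutant. Unthinned it was 2.40% and 1.23%, at median depths of 22476.5 and 22723.5 UMIs. All 3 classes lay above these shares in both libraries. Globin transcripts made up most UMIs of red blood cell-like cells, *Hbb-y* alone 345570 and 368591 CPM, which lowers every other gene there. These cells therefore cannot give the level of free RNA in other classes, which was not tested.

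Markers of other classes were also counted in these cells. The 9 endothelium markers summed to 43.5 CPM in control and 53.5 CPM in mutant RPE-like cells, against 4348 and 4355 CPM in endothelium-like cells, with *Tek* at 0 in both libraries. The 7 Schwann or neural crest markers summed to 17.4 and 14.7 CPM there, against 3079 and 2811 CPM in their own class, with *Foxd3* and *Cdh19* at 0. In endothelium-like cells the Schwann or neural crest markers summed to 2.22 and 0.555 CPM. The 14 periocular mesenchyme markers summed to 227 and 215 CPM in RPE-like cells, against 3626 and 3727 CPM in their own class. The 9 pericyte markers summed to 156 and 192 CPM in RPE-like cells, above the 139 and 107 CPM of periocular mesenchyme-like and the 41.6 and 40.5 CPM of endothelium-like cells, and no class of pericytes was named. Of these 9, 1 was at 0 in control and 3 in mutant RPE-like cells. The part of these markers in the *Timp3* level was not tested.

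**Figure D2:**
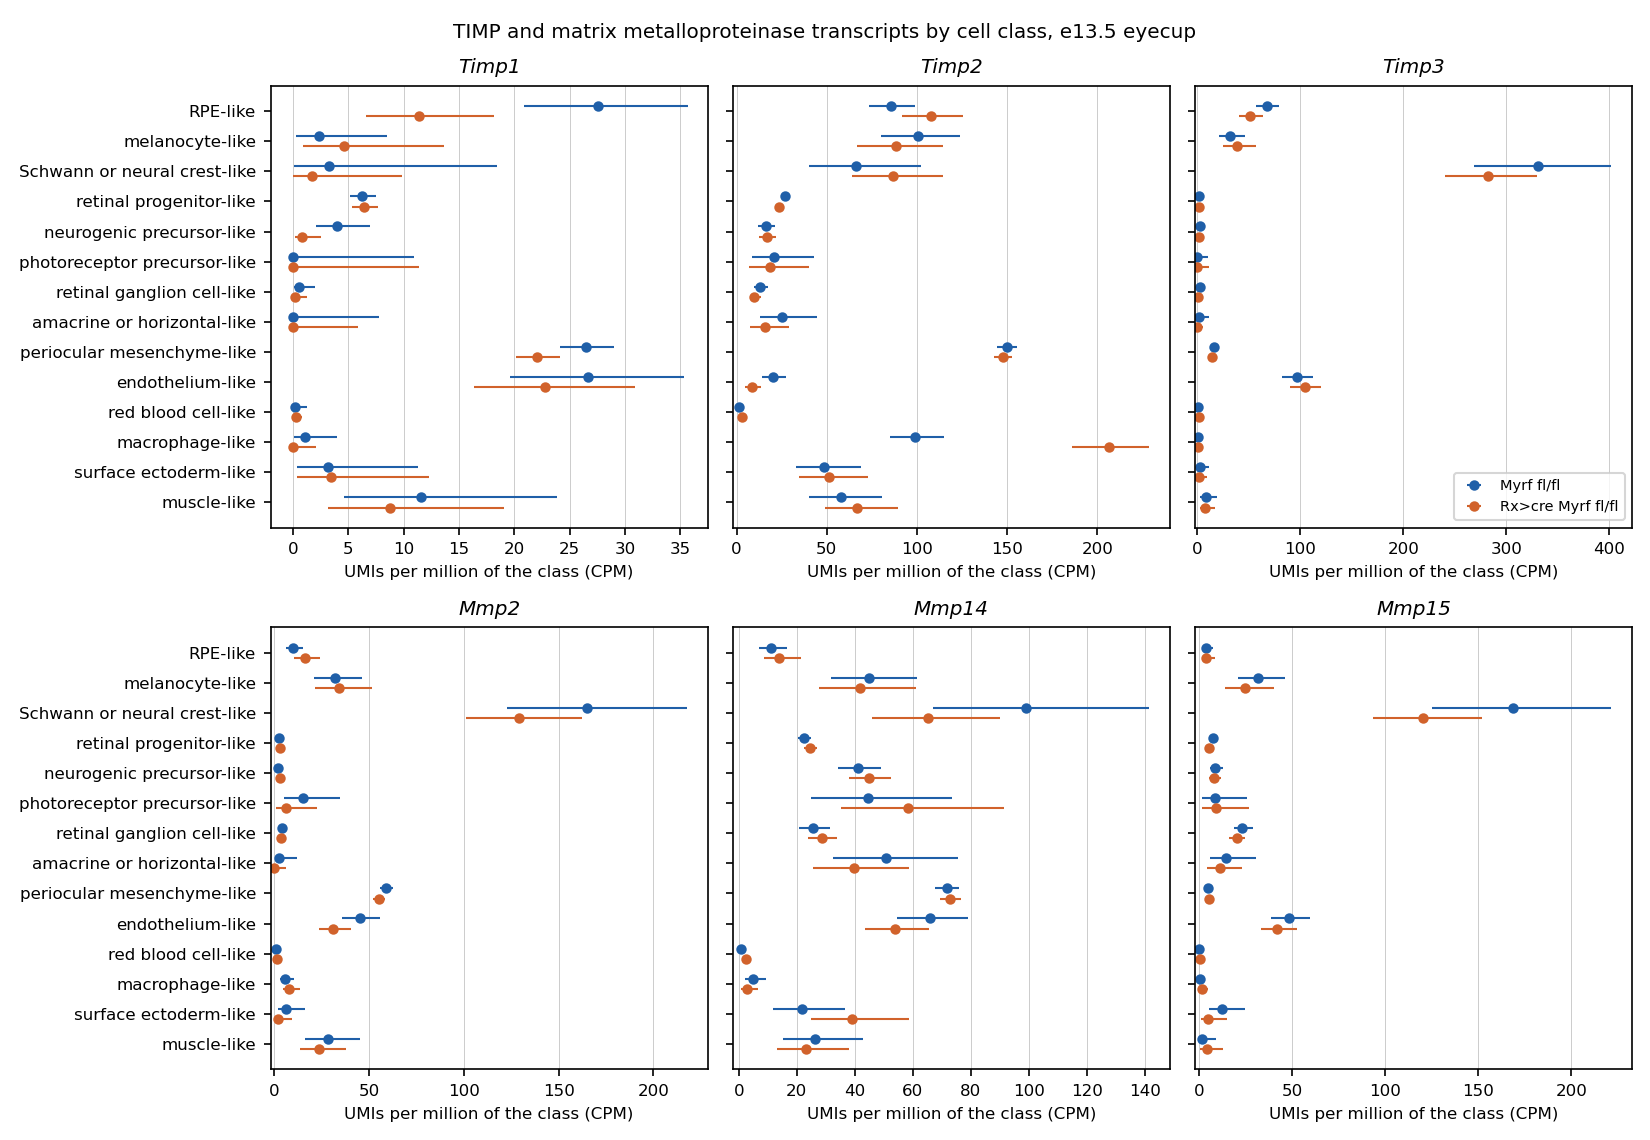
Level of each gene in CPM (x axis, linear, own scale per panel) in the 14 named cell classes (y axis), with a point and an exact Poisson 95% interval for the Myrf fl/fl (blue) and the Rx>cre Myrf fl/fl (orange) library. *Timp3*, *Mmp2* and *Mmp15* peak in Schwann or neural crest-like cells, *Timp2* in periocular mesenchyme-like and macrophage-like cells and *Timp1* in RPE-like, endothelium-like and periocular mesenchyme-like cells.

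The annotated *Syn3* gene spans *Timp3*, and the sources used here do not say how reads within introns or on the other strand were treated. *Syn3* UMIs were few, and its level peaked at 33.0 and 26.5 CPM among Schwann or neural crest-like cells. There were 10 control and 15 mutant *Syn3* UMIs in Schwann or neural crest-like cells, 19 and 15 in endothelium-like cells, and 24 and 6 in RPE-like cells. Across the 14 classes in both libraries (28 points), *Syn3* and *Timp3* had a Pearson correlation of 0.91 on log2(CPM + 10). The log2 ratio of *Syn3* in RPE-like cells was -1.37 (-3.11 to -0.20), from 30 UMIs in all. Whether reads of one gene were counted to the other was not tested. *Syn1*, around *Timp1*, had its UMIs mainly in retinal ganglion cell-like cells (29 and 28), where *Timp1* had 2 and 1, and no UMI in RPE-like cells. *Cep295nl*, within *Timp2*, had 14 and 19 UMIs over all kept cells.

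*Timp1*, a soluble inhibitor, was found in endothelium-like, periocular mesenchyme-like and RPE-like cells. Its control levels in these 3 classes were close, at 26.6 CPM (19.6 to 35.3), 26.5 CPM (24.2 to 29.0) and 27.5 CPM (20.9 to 35.7), with overlapping intervals. In the mutant library endothelium-like and periocular mesenchyme-like cells stood at 22.8 CPM (16.3 to 30.9) and 22.1 CPM (20.1 to 24.2), while RPE-like cells stood at 11.4 CPM (6.62 to 18.2). The control RPE-like level holds 1 shared barcode, which is described with the *Timp1* ratio below. Retinal progenitor-like cells had 113 UMIs in each library, at 6.24 and 6.43 CPM. Classes of retinal neurons were at or near 0.

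*Timp2*, the inhibitor that also takes part in MMP2 activation, was the most widely found of the 3 inhibitors, with UMIs in all 14 classes of both libraries. Periocular mesenchyme-like cells stood at 150 CPM (144 to 156, 2646 UMIs) in control and 148 CPM (143 to 153, 3169 UMIs) in mutant. After thinning, 35.4% (32.7 to 38.2) of 1231 control and 33.9% (31.5 to 36.3) of 1559 mutant cells of this class had a *Timp2* UMI. The share was 0.562% and 0.484% in red blood cell-like cells, where globin transcripts lower every other gene, so these do not give the level of free RNA. Macrophage-like cells stood at 99.2 CPM (85.2 to 115) and 207 CPM (186 to 229), melanocyte-like cells at 100.4 and 88.5 CPM, and RPE-like cells at 85.5 CPM (73.4 to 99.1) and 108 CPM (91.7 to 126). Endothelium-like cells, high in *Timp3*, were low in *Timp2*, at 19.96 CPM (14.0 to 27.6) and 8.33 CPM (4.66 to 13.7). Retinal progenitor-like cells stood at 27.0 and 23.5 CPM.

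*Mmp2*, *Mmp14* and *Mmp15* shared their first class with *Timp3* in the control library. In Schwann or neural crest-like cells *Mmp2* stood at 165 CPM (123 to 218) in control and 129 CPM (101 to 162) in mutant. Periocular mesenchyme-like cells followed at 59.1 CPM (55.5 to 62.8) and 55.1 CPM (52.0 to 58.4), with endothelium-like cells at 44.9 CPM (35.7 to 55.8) and 31.1 CPM (23.5 to 40.4) and melanocyte-like cells at 31.9 CPM (21.0 to 46.4) and 34.2 CPM (21.4 to 51.7) below them. The intervals of these last classes overlapped, and their order differed between the libraries. RPE-like cells held 20 and 24 *Mmp2* UMIs, at 9.66 CPM (5.90 to 14.9) and 16.1 CPM (10.3 to 23.9). The neural retina classes stayed at or below 3.86 CPM, except for photoreceptor precursor-like cells with 5 and 2 UMIs.

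*Mmp14* was found across the neural retina as well. Schwann or neural crest-like cells stood at 99.1 CPM (66.9 to 142) in control and 65.4 CPM (46.0 to 90.1) in mutant, periocular mesenchyme-like cells at 71.7 CPM (67.8 to 75.8) and 72.9 CPM (69.4 to 76.6), and endothelium-like cells at 66.0 CPM (54.7 to 79.0) and 53.9 CPM (43.7 to 65.7). The intervals of these 3 neighbours in the order overlapped in the control library. Photoreceptor precursor-like cells stood at 44.6 and 58.5 CPM, amacrine or horizontal-like cells at 50.8 and 39.7 CPM and neurogenic precursor-like cells at 41.1 CPM (34.1 to 48.9) and 44.8 CPM (38.0 to 52.4). Retinal progenitor-like cells were lower, at 22.5 CPM (20.3 to 24.8) and 24.6 CPM (22.4 to 27.1), with an interval below that of neurogenic precursor-like cells in both libraries. Only macrophage-like and red blood cell-like cells were lower in both libraries than RPE-like cells, at 11.1 CPM (7.04 to 16.7) and 14.05 CPM (8.69 to 21.5).

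*Mmp15* stood at 169 CPM (125 to 222) in control and 120 CPM (93.3 to 152) in mutant Schwann or neural crest-like cells, apart from every other class in both libraries. Endothelium-like cells followed at 48.2 CPM (38.6 to 59.5) and 42.2 CPM (33.3 to 52.8). Retinal ganglion cell-like cells stood at 23.4 CPM (18.7 to 29.0) and 20.4 CPM (16.4 to 25.0), above retinal progenitor-like cells at 7.40 CPM (6.20 to 8.76) and 5.46 CPM (4.42 to 6.67). RPE-like cells held 8 and 6 *Mmp15* UMIs.

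The classes differ in size, and the class with the highest level was often not the one that held the most transcripts. Periocular mesenchyme-like cells held 54.2% of all control and 53.9% of all mutant *Timp2* UMIs, 62.5% and 61.3% of those of *Mmp2*, and 49.1% and 50.8% of those of *Mmp14*. For *Timp3* they held 29.5% and 28.9%, endothelium-like cells 17.5% and 17.8%, RPE-like cells 14.1% and 7.31%, and Schwann or neural crest-like cells 10.1% and 15.2%. These shares depend on the number of cells of each class in a library as well as on the level per class.

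The 6 genes were also compared over the 5 clusters of the periocular mesenchyme-like class and clusters 11 and 17, which were left unnamed because their leading genes held more markers of another class. Over these 7 clusters *Timp3* differed most in fold, with control levels from 7.42 to 45.0 CPM, against 46.7 to 92.8 CPM for *Mmp2* and 57.8 to 106 CPM for *Mmp14*. *Timp3* was highest in cluster 12, led by *Cldn11*, *Col9a3* and *Sox9*, at 45.0 CPM (37.0 to 54.2) in control and 40.8 CPM (33.5 to 49.2) in mutant. It was lowest in cluster 1, led by *Nbl1*, *Twist1* and *Tfap2b*, at 7.42 CPM (5.28 to 10.1) and 6.68 CPM (4.93 to 8.86). *Timp2* was highest in cluster 11, led by *Meox1*, *Scx* and *Msc*, at 330 CPM (306 to 354) and 319 CPM (301 to 338). The other 6 clusters lay between 121 and 237 CPM for *Timp2* in control. In cluster 18, led by *Osr2*, *Foxl2* and *Dlk1*, *Timp2* stood at 237 CPM (213 to 263) in control and 174 CPM (155 to 195) in mutant. In cluster 17, led by *Fmo1*, *Spp1* and *Lypd1*, *Timp1* stood at 9.87 CPM (5.85 to 15.6) from 18 UMIs in control and 26.3 CPM (19.3 to 35.0) from 47 UMIs in mutant. In cluster 1 *Timp1* was at 10.1 and 10.9 CPM, and in clusters 4, 9, 12, 18 and 11 between 21.5 and 44.1 CPM in both libraries. Other log2 ratios with intervals above 0 were *Timp2* in cluster 9 (0.22) and *Mmp14* in clusters 4 (0.27) and 18 (0.44). Intervals below 0 were also found for *Timp1* in cluster 4 (-0.44) and *Mmp15* in cluster 17 (-1.74). The share of all genes with such intervals in these clusters was not counted.

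**Figure D3:**
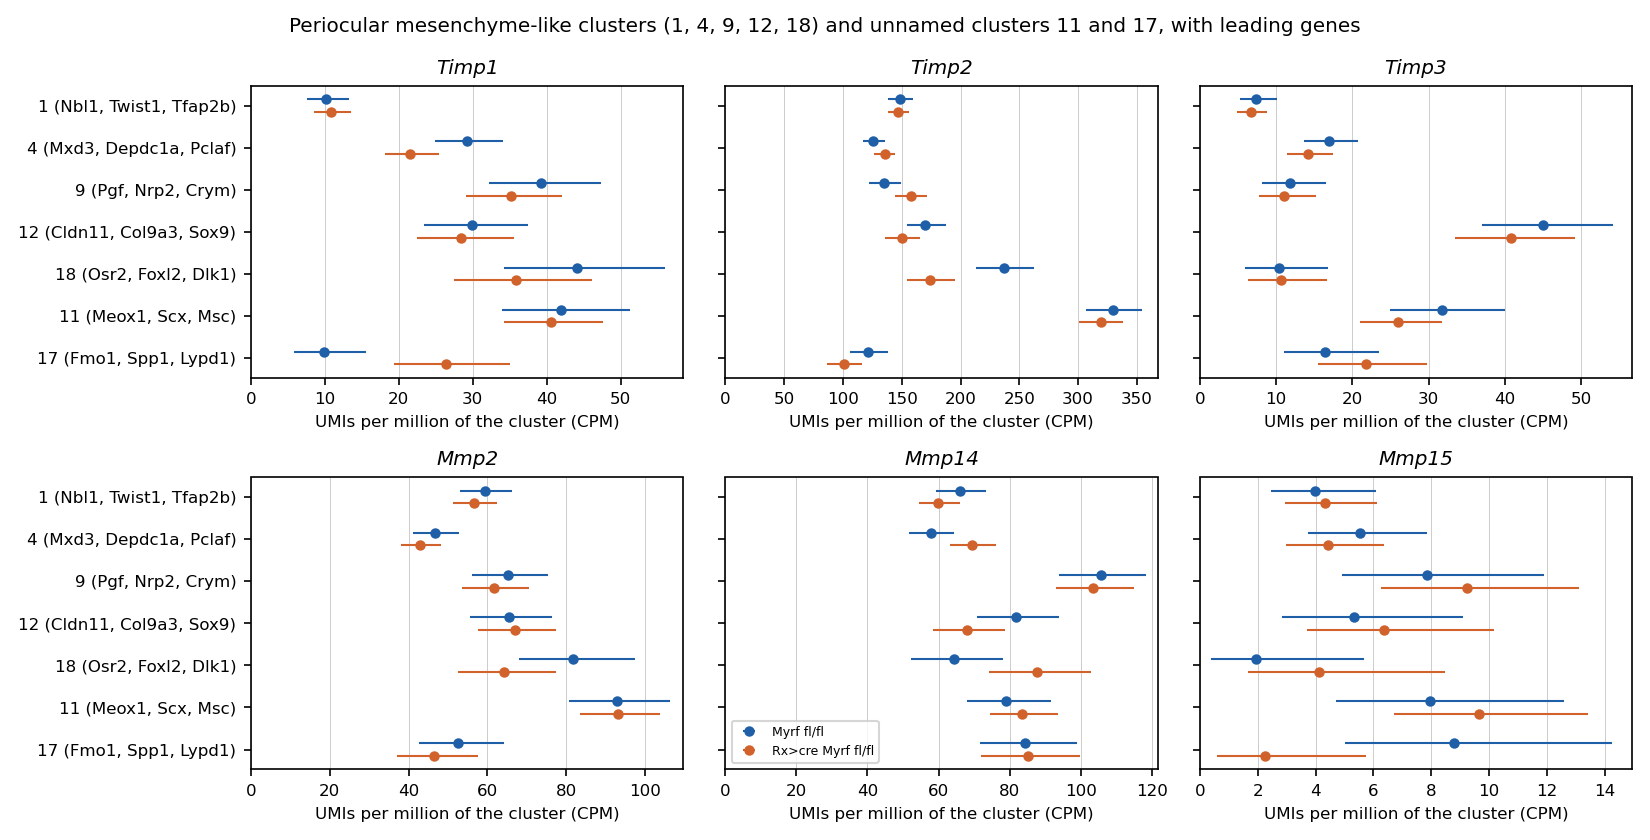
Level of each gene in CPM (x axis, linear, own scale per panel) in the 5 periocular mesenchyme-like clusters and the unnamed clusters 11 and 17 (y axis, with number and 3 leading genes), with a point and an exact Poisson 95% interval for the Myrf fl/fl (blue) and the Rx>cre Myrf fl/fl (orange) library. *Timp3* stands highest in cluster 12 and *Timp2* in cluster 11 in both libraries.

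TIMP2, MMP14 and MMP2 act in 1 complex, so cells with transcripts of all 3 were counted in the periocular mesenchyme-like class after thinning to 3000 UMIs. In control, 16 of 1231 cells (1.3%, 0.745 to 2.10) had a UMI of each, where the product of the 3 single shares gives 1.15%. In mutant, 16 of 1559 cells (1.03%, 0.588 to 1.66) had all 3, where the product gives 1.06%. The intervals of both observed shares held the product. No RPE-like cell of 131 control and 80 mutant cells had all 3 at this depth, where the product gives 0.0408 and 0.0169 cells, too few to be seen.

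Between the libraries, the first question was the RPE, where *Myrf* is deleted. Only 3 of the 6 genes, the inhibitors, reached 50 UMIs over both libraries in RPE-like cells. *Timp1* had 57 control and 17 mutant UMIs, a log2 ratio of -1.22 (-2.15 to -0.47), past 1.5-fold lower. Of all 6895 genes with 50 UMIs in the class, 7.48% were past 1.5-fold lower and 3.8% past 1.5-fold higher. The *Timp1* UMIs came from 37 control and 14 mutant cells, with at most 4 in 1 cell. After thinning, 7.63% (3.72 to 13.6) of control and 3.75% (0.780 to 10.6) of mutant cells had a *Timp1* UMI, with overlapping intervals. Without the shared barcodes, 1 of which was a control RPE-like cell with 4 *Timp1* UMIs, the ratio was -1.13 (-2.06 to -0.37). *Timp1* is X-linked, and in cells with *Xist* and no Y-linked UMI the counts were 19 and 2, in cells with Y-linked and no *Xist* UMI 23 and 11, with log2 ratios of -1.81 (-5.47 to -0.27) from 42 and 15 cells and -0.77 (-2.02 to 0.26) from 64 and 45 cells. The part of the periocular mesenchyme and pericyte markers, whose sums in RPE-like cells are given with *Timp3*, in the *Timp1* value was not tested.

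For *Timp3*, the RPE-like log2 ratio was -0.38 (-0.81 to 0.019) from 140 and 77 UMIs, an interval that held 0. *Timp2* had a log2 ratio of 0.33 (0.016 to 0.65) from 177 and 161 UMIs. As a mean of CPM per cell in place of a class sum, the *Timp2* ratio was 0.015 and the *Timp3* ratio -0.60, a mean in which shallow and deep cells count alike. *Mmp2*, *Mmp14* and *Mmp15* had 44, 44 and 14 UMIs in all and log2 ratios of 0.72 (-0.18 to 1.67), 0.34 (-0.59 to 1.26) and 0.11 (-1.75 to 1.77). Differences in these proteases smaller than these intervals were not detectable at this depth.

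Over all classes, 38 pairs of a gene and a class had 50 UMIs, in 11 of the 14 classes. Of these, 30 intervals held 0, 6 lay below and 2 above it. The share of all genes with intervals off 0 was not counted, so these counts cannot be set against it. Past 1.5-fold lay 3 lower and 1 higher, described class by class with the share of all genes past it. In melanocyte-like cells, where no gene of the 6 with 50 UMIs was past the fold, 4.61% of all genes were past it lower and 3.02% higher. The same held in neurogenic precursor-like (2.89% lower, 1.58% higher), retinal ganglion cell-like (2.67% and 1.51%), surface ectoderm-like (6.53% and 4.9%) and muscle-like cells (6.45% and 3.01%). In periocular mesenchyme-like cells, with the most UMIs, *Timp2*, *Mmp2*, *Mmp14* and *Mmp15* had log2 ratios of -0.022 (-0.096 to 0.053), -0.10 (-0.22 to 0.021), 0.024 (-0.084 to 0.13) and 0.068 (-0.34 to 0.49). *Timp3* had -0.22 (-0.46 to 0.012) and *Timp1* -0.26 (-0.45 to -0.076) in this class. In cells with *Xist* and no Y-linked UMI, *Timp1* had -0.30 (-0.60 to -0.012), from 684 control and 459 mutant cells. In cells with Y-linked and no *Xist* UMI it had -0.096 (-0.42 to 0.25), from 353 and 729 cells. Of the 5 clusters of the class, only cluster 4 had a *Timp1* interval below 0. No gene of the 6 was past 1.5-fold in periocular mesenchyme-like cells, where 2.06% of 12122 genes were past it lower and 0.792% higher.

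In endothelium-like cells *Timp3* had a log2 ratio of 0.11 (-0.19 to 0.42). *Timp2* had 36 control and 15 mutant UMIs there, a log2 ratio of -1.21 (-2.24 to -0.36), and *Mmp2* 81 and 56, a ratio of -0.52 (-1.05 to -0.021). Of 6142 genes, 4.49% were past 1.5-fold lower in this class and 1.79% higher. The 14 periocular mesenchyme markers, a class high in both genes, summed to 179 CPM in control and 57.2 CPM in mutant endothelium-like cells, with none at 0, and their part in these values was not tested. With endothelium-like cells chosen by markers cell by cell, *Timp2* had 17 and 15 UMIs and a ratio of -0.26 (-1.37 to 0.82). In female cells, with *Xist* and no Y-linked UMI, the counts were 9 and 6 and the ratio 0.76, of opposite sign, from 32 control and 19 mutant cells. As a mean of CPM per cell the ratio was -3.23. Without the shared barcodes the *Mmp2* interval reached 0.018, at a ratio of -0.49.

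In macrophage-like cells *Timp2* had 178 control and 367 mutant UMIs, a log2 ratio of 1.05 (0.80 to 1.32), the only value past 1.5-fold higher. Of 6069 genes, 4.93% were past 1.5-fold higher there and 4.2% lower. The UMIs came from 52 of 125 control and 67 of 136 mutant cells, with up to 17 and 33 in 1 cell. After thinning, 30.8% (20.8 to 42.2) and 40.7% (29.9 to 52.2) of the cells had a *Timp2* UMI. The make-up of the class differed between the libraries. All 9 macrophage markers had ratios from 0.14 to 0.53, summing to 10187 CPM in control and 12783 CPM in mutant. *S100a8*, a granulocyte gene, stood at 79.7 and 1925 CPM and *Cpa3*, a mast cell gene, at 988 and 701 CPM. Their part in the *Timp2* value was not tested. With macrophage-like cells chosen by markers cell by cell, the ratio was 1.13 (0.87 to 1.41), and as a mean of CPM per cell it was 0.63.

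In Schwann or neural crest-like cells *Timp3* had a log2 ratio of -0.23 (-0.59 to 0.15) and *Mmp14* one of -0.61 (-1.33 to 0.14), past 1.5-fold lower with an interval that held 0. In this class 6.51% of 2567 genes were past 1.5-fold lower and 4.01% higher. In retinal progenitor-like cells *Timp2* had a log2 ratio of -0.20 (-0.39 to -0.0051) and *Mmp15* one of -0.43 (-0.83 to -0.049), both within 1.5-fold. There 1.58% of 11453 genes were past the fold lower and 0.917% higher.

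**Figure D4:**
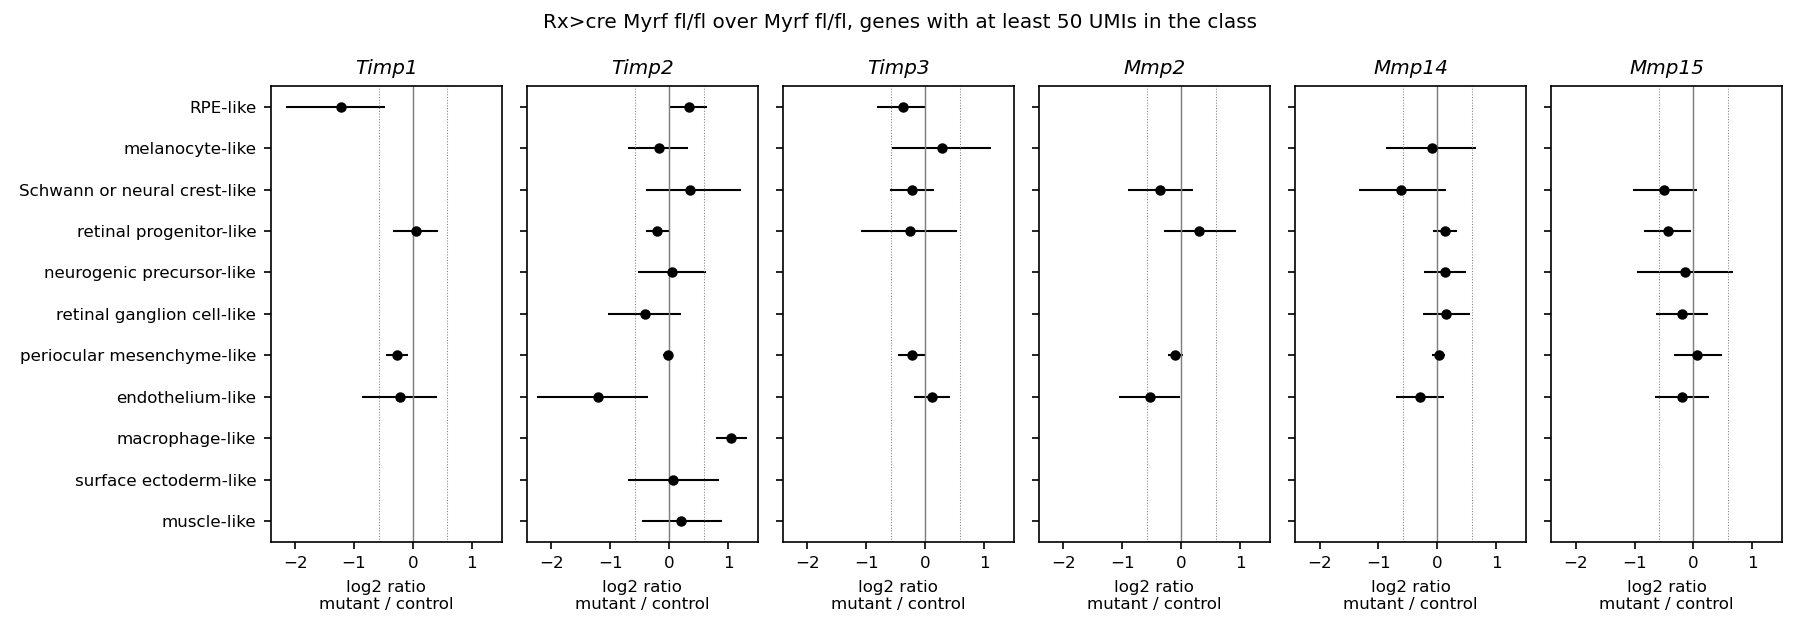
Log2 ratio of the Rx>cre Myrf fl/fl over the Myrf fl/fl library (x axis) for each gene in the classes where it had at least 50 UMIs (y axis), with exact conditional 95% intervals, a grey line at 0 and dotted lines at 1.5-fold. Of the 38 points, 4 lie past a dotted line, *Timp1* in RPE-like, *Timp2* in endothelium-like and macrophage-like and *Mmp14* in Schwann or neural crest-like cells, and the last has an interval that holds 0.

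Other genes of the pathway were read from fixed lists of further matrix metalloproteinases, regulators, ADAMs and ADAMTS proteases, 57 of which were in the counts. In RPE-like cells 10 of them had 50 UMIs, 1 was past 1.5-fold lower and 0 higher, beside 7.48% and 3.8% of all genes, and their median log2 ratio was -0.25 against -0.030 over all 6895 genes. The 1 was *Adam10*, a sheddase of membrane proteins, at 59.4 CPM (123 UMIs) in control and 37.5 CPM (56 UMIs) in mutant, a log2 ratio of -0.65 (-1.15 to -0.20). In periocular mesenchyme-like cells 32 had 50 UMIs, 1 was past the fold lower and 0 higher, beside 2.06% and 0.792% of all genes, and their median was -0.075 against -0.040. The 1 was *Adamts17*, with 37 and 28 UMIs and a ratio of -0.67 (-1.45 to 0.064).

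Among the regulators, *Bsg*, which encodes the metalloproteinase inducer basigin, was highest in RPE-like cells, at 1676 CPM (1621 to 1733) in control and 1310 CPM (1253 to 1370) in mutant, a log2 ratio of -0.35 (-0.44 to -0.27). *Efemp1*, which encodes a fibulin that binds TIMP3, stood at 98.0 and 131 CPM in RPE-like cells, with a ratio of 0.42 (0.13 to 0.71). *Lrp1*, an endocytic receptor for protease and inhibitor complexes, stood at 106 and 83.6 CPM there, with a ratio of -0.34 (-0.67 to -0.023). *Timp4*, the remaining inhibitor gene, had 4 control and 7 mutant UMIs over all kept cells.

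Of the further metalloproteinases, *Mmp16*, membrane-bound like *Mmp14* and *Mmp15*, was highest in RPE-like cells at 19.8 and 17.4 CPM, with a log2 ratio of -0.17 (-0.96 to 0.56). *Mmp11*, stromelysin 3, stood at 28.0 and 21.4 CPM in RPE-like and 52.4 and 49.8 CPM in periocular mesenchyme-like cells. *Mmp23* stood at 8.72 and 9.18 CPM in the latter and had 0 and 2 UMIs in RPE-like cells. *Mmp1b*, *Mmp10*, *Mmp20* and *Mmp27* had no UMI in any kept cell. These 4 and *Timp4* are named because of their low counts. Among the proteases that TIMP3 inhibits, *Adam17* stood at 24.1 CPM in RPE-like cells of both libraries and *Adamts5*, an aggrecanase, at 28.5 and 38.1 CPM, with a ratio of 0.42 (-0.13 to 0.97). *Adamts1*, below 50 UMIs in RPE-like cells, had 3 control and 18 mutant UMIs there, a log2 ratio of 2.72 (1.28 to 5.46), and 29.7 and 30.2 CPM in periocular mesenchyme-like cells. In the latter *Adamts10* stood at 30.6 and 25.0 CPM, with a ratio of -0.30 (-0.47 to -0.12), and *Adam19* at 20.2 and 18.5 CPM, with a ratio of -0.13 (-0.34 to 0.078).

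Genes whose level followed each of the 6 most closely were sought among 11848 genes, by Pearson's r of log2(CPM + 10) over 14 classes in both libraries (28 points that share libraries and cells). For *Timp3* these were *Lamc1* (0.95), the laminin gamma 1 chain of basement membranes, *Hbegf* (0.92), an EGF family growth factor, and *Ldb2* (0.91). For *Timp1* they were *Fkbp10* (0.88), a collagen-folding isomerase, *Acsf2* and *Kank2*, and for *Timp2* *Aldh2* (0.89), a mitochondrial aldehyde dehydrogenase, *Irf2bp2* and *Chid1*. For *Mmp2* they were *Nid1* (0.90), the basement membrane protein nidogen 1, *Dock1* and *Tram2*. For *Mmp14* they included *Fnbp1l* (0.87) and *Selenom*, and for *Mmp15* *Mcam* (0.90), a cell adhesion molecule, and *Pcdh1*. With 1 in place of 10 added to the CPM, 8 of the 18 most alike genes were found again. Among the 6 themselves, *Timp3* was most like *Mmp2* (0.83) and *Mmp15* (0.76), and *Timp2* with *Mmp15* was the least alike pair (0.0090).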

How the data were processed

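Single-cell 3′ libraries of e13.5 mouse eyecups were compared, 1 per genotype, each of 3 pooled samples. Per the labels and methods, the authors aligned reads to mm10 with Cell Ranger (7.1.0) and analysed cells in Seurat (4.1.1), while the deposited file headers name software version 3.0.0. The deposited values are counts, raw UMIs per gene and barcode. The handling of reads in introns is not given in the sources used here.

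Cells with fewer than 200 genes (5 control, 9 mutant) or over 15% mitochondrial UMIs (515 and 371) and doublets called by Scrublet in scanpy 1.11.5 (51, 0.924%, and 74, 1.16%) were left out. Cells were integrated and clustered in Seurat 5.3.0 (30 principal components, resolution 0.8, 1993 of 2000 variable features) without the 6 genes, their pathway and host genes. A cluster was named where at least 3 markers of a class stood over 2-fold above the rest and its leading genes did not go against the name. UMIs were summed per class and library. Past 1.5-fold was read only for genes with 50 UMIs in both libraries together, and classes needed 20 cells in each library, or 5 in the alternatives. Shares were compared after thinning to 3000 UMIs per cell. Exact Poisson, conditional binomial and Clopper-Pearson 95% intervals (scipy 1.17.1) cover counting error only. The limit for a count of 0 was 3 UMIs. The steps were tested on simulated data.

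The genes named were the 6 in every class, the 3 genes with most UMIs of each pathway list, list genes past 1.5-fold in RPE-like or periocular mesenchyme-like cells, the 3 most alike genes, the host genes and *Myrf*. Some genes that this rule names are not reported here. The 6 genes, lists and markers were chosen with earlier results of these data known. Alternatives were no doublet removal, upper limits of 2000 (the limit in the study's methods) and 20000 UMIs, at most 5% mitochondrial UMIs, clustering with all variable features, without integration or at resolutions 0.4 and 1.6, a marker rule per cell, scaling without mitochondrial, haemoglobin and ribosomal protein genes, means over cells, female or male cells only, other thinning and pseudocounts and, chosen after seeing the data, leaving out the shared barcodes.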

Additional observations from a re-analysis of the deposited data

Results flagged for a closer look

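The *Timp2* log2 ratios of mutant over control pointed in opposite directions in different classes. The ratio was 0.33 in RPE-like and 1.05 in macrophage-like cells, with intervals above 0, and -0.20 in retinal progenitor-like and -1.21 in endothelium-like cells, with intervals below 0. The RPE-like interval held 0 with no doublet removal (-0.020 to 0.61), under limits of 20000 UMIs (-0.24 to 0.61) and 5% mitochondrial UMIs (-0.19 to 0.91), and the mean of CPM per cell gave 0.015. In endothelium-like cells chosen by markers cell by cell the ratio was -0.26 (-1.37 to 0.82). The retinal progenitor-like ratio stayed below 0 in 14 of 14 alternatives. Its interval held 0 in female (-0.35 to 0.23) and male cells (-0.59 to 0.098) and in every single cluster of the class. With 1 library per genotype the difference between classes was not tested.

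*Timp3* stood at 965 CPM in control and 1077 CPM in mutant cells of the unnamed cluster of shared barcodes, above the level of every named class. This cluster entered no named class but is in the totals over all kept cells.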

How the results depend on the processing

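No paired analysis was possible because each genotype had 1 library. Over 14 alternatives, 1122 ratios were recomputed, of which 1052 moved by less than their counting interval, 64 moved further and 6 changed sign from an interval that had excluded 0. Of all 1122, 153 changed sign, mostly from an interval that held 0, among them 25 of 54 under the limit of 2000 UMIs. *Timp1* in RPE-like cells stayed lower in the mutant in 14 of 14, from -1.81 to -0.42. Without the shared barcodes no ratio moved beyond its interval (84 of 84).

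The limit of 2000 UMIs left 105 control and 63 mutant RPE-like cells, few UMIs (1 and 0 of *Timp1*, 5 and 1 of *Timp3*) and ratios of -0.42 for *Timp1*, -0.27 for *Timp2* and -1.0 for *Timp3*. *Timp3* was then at 49.1 and 14.7 CPM in RPE-like cells, with a ratio of -1.12 in endothelium-like cells. The other ratios that changed sign under this limit from an interval that had excluded 0 were *Mmp15* in retinal progenitor-like (1.27), *Timp1* in neurogenic precursor-like (0.65) and *Mmp14* in red blood cell-like cells (-0.19). Without this limit the *Timp1* ratio in neurogenic precursor-like cells was -1.90 (-4.66 to -0.31), from 12 control and 3 mutant UMIs. The limit of 5% mitochondrial UMIs gave -1.33 for *Mmp2* and 1.84 for *Mmp15* in RPE-like cells. Scaling without mitochondrial, haemoglobin and ribosomal protein genes, which lowers the total by construction, put *Timp3* at 92.5 and 72.1 CPM in RPE-like and 448 and 398 CPM in Schwann or neural crest-like cells. Means over cells gave 0.015 for *Timp2* in RPE-like cells, -0.55 for *Timp3* in endothelium-like cells and mutant *Timp3* levels of 38.8 CPM in RPE-like and 332 CPM in Schwann or neural crest-like cells. Male cells, 9 control and 7 mutant in the Schwann or neural crest-like class, gave -0.47 for *Mmp2* in RPE-like cells, -0.31 for *Timp3* in endothelium-like cells, 405 and 342 CPM of *Timp3* in Schwann or neural crest-like cells and 1.35 for *Timp1* in neurogenic precursor-like cells. Female cells gave 0.76 for *Timp2* in endothelium-like cells (32 and 19 cells). Thinned to 1500 UMIs, 0.159% and 0.0625% of periocular mesenchyme-like cells had *Timp2*, *Mmp2* and *Mmp14*. With 20 UMIs as the minimum, 2 of 17 pathway genes were past the fold lower and 2 higher in RPE-like cells, against 10.8% and 6.66% of all 9702 genes. The cause was not tested in any of these. Classes with under 5 cells in a library gave no value, which was so in some classes under 4 alternatives.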
